A study of Mus musculus with 4 samples.

Results

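The genes described here are the 6 members of the Groucho/TLE corepressor family, *Tle1*, *Tle2*, *Tle3*, *Tle4*, *Tle6* and *Aes*. All Runx2 peaks that overlapped the gene body of a member, widened by 20 kb on each side, by at least 1 bp were taken from the peak list of each time point. The day 0 list had 21 of its 25457 Runx2 peaks in these windows, the day 9 list 41 of 60596 and the day 28 list 29 of 40330. Peaks from different lists that overlapped were joined, which gave 46 regions of 67703 in all. A region is placed by the centre of its day 9 peak, or of its highest-ranked peak where it had none at day 9, and distances run from that centre to the start of the longest protein-coding transcript. The choice of members used gene names and no measured value, though earlier results of these data were known when it was made.

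Runx2 occupancy was mapped by ChIP-Seq with the antibody M70 in MC3T3-E1 subclone 4 cells, an osteoblast precursor line of strain C57BL/6. Cells were proliferating preosteoblasts at day 0, deposited matrix at day 9 and mineralized at day 28, the later stages in medium with ascorbic acid and beta-glycerophosphate. Reads of 2 biological replicate libraries per time point were pooled before peaks were called against input DNA of day 9 cells, so each time point is a single list, differences between days carry no replicate error, and no test between days was possible. The line is 1 subclone, and the lists hold no expression values against which the stage labels could be checked, nor read counts from which depth could be read. By the library notes of the study, proliferating cells had the most raw reads and mineralizing cells the fewest, so the list with the fewest peaks came from the deepest sequencing. The score of a peak is 10 times the negative log10 of its MACS p-value. Because scores depend on depth, each peak is given by its percentile, the share of the peaks of its own list with a lower score (ties split evenly). A percentile also depends on the length of its list, which was 25457, 60596 and 40330 peaks at days 0, 9 and 28. Percentiles of different days are therefore not on 1 scale, and a rise between days is not by itself stronger occupancy. MACS writes 3100 where a p-value is too small to be held, so scores of 3100 or more were treated as a tie, called the ceiling here, which stood at percentile 99.6 at day 0, 97.6 at day 9 and 98.0 at day 28.

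Groucho/TLE proteins do not bind DNA on their own. They are recruited by DNA-binding partners, among them Runx proteins, Hes proteins and the Tcf/Lef factors of Wnt signalling, and repress transcription together with histone deacetylases. TLE1 to TLE4 are full-length members with an N-terminal oligomerization domain and a C-terminal WD-repeat domain. AES is a short member that has the N-terminal part and lacks the WD repeats, and TLE6 is a divergent member known from oocytes and early embryos.

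The bases below are those at the centres of peaks on which the following results turn, 50 bp to either side, and 1 longer run. They are the plus strand of mm9 (NCBIM37), read 5′ to 3′, and capitals mark the core Runx motif TGTGGT or its reverse complement. The first 4 show a core motif within 50 bp of a peak centre. The fifth shows a run of motifs that ended 97 bp from the peak centre, and the last 3 show the centres of high-scoring peaks that held none within 50 bp.
*Tle1* intron 4 (days 0 and 9), chr4:71856292-71856392: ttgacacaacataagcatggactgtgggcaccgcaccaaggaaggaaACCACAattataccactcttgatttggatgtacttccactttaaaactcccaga
*Tle1* intron 4 (day 0 alone), chr4:71845690-71845790: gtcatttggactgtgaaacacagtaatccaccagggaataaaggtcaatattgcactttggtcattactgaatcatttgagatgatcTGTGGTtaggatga
*Tle3* intron 4 (days 9 and 28), chr9:61224597-61224697: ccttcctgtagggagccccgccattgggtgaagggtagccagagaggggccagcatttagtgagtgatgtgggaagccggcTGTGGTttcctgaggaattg
*Tle6* intron 4 (all 3 days), chr10:81060004-81060104: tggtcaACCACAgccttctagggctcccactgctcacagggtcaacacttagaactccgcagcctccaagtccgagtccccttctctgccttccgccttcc
*Tle6* upstream run of core sites (days 9 and 28), chr10:81067549-81067694: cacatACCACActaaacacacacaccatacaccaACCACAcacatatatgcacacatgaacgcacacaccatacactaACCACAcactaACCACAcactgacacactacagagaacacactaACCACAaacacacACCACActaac
*Tle3* upstream (all 3 days), chr9:61219146-61219246: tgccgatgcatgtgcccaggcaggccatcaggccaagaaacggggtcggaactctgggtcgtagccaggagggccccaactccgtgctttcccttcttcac
*Tle2* upstream (all 3 days), chr10:81033405-81033505: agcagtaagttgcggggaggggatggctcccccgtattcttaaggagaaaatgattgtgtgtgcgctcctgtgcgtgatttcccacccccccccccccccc
*Aes* exon 3 (all 3 days), chr10:81026821-81026921: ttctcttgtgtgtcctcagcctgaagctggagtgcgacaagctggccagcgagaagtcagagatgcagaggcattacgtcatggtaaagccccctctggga

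All 6 members had a Runx2 peak in their window at each of the 3 time points. Across all 22367 protein-coding genes, 65.0% had a peak in a window made the same way at day 0, 77.0% at day 9 and 71.2% at day 28, so the presence of a peak was common to most genes. The number of peaks ranged widely among members. At day 9 there were 16 peaks in the window of *Tle2*, 15 at *Tle3*, 13 at *Aes*, 12 at *Tle6*, 4 at *Tle1* and 2 at *Tle4*. At day 0 the numbers were 6, 6, 6, 4, 5 and 2 in the same order, and at day 28 they were 14, 7, 13, 10, 2 and 3. The median protein-coding gene had 1 peak at day 0, 2 at day 9 and 2 at day 28. The order of the members rests on the flanks of the windows. Over the gene bodies alone, day 9 counts were 10 at *Tle3*, 4 at each of *Tle1*, *Tle2*, *Tle6* and *Aes*, and 1 at *Tle4*.

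*Aes*, *Tle2* and *Tle6* lie side by side on chromosome 10, with 8198 bp between *Aes* and *Tle2* and 58 bp between *Tle2* and *Tle6*, and their windows share peaks. Of the 46 regions, 20 lay in the windows of more than 1 member and 7 in those of all 3 neighbours. Counted once, this locus held 24 of the 46 regions, with 8, 20 and 17 peaks at days 0, 9 and 28. The locus of *Tle3* held 13 regions, that of *Tle1* held 6 and that of *Tle4* held 3.

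Per length, the members fell into dense and sparse windows at day 9. At day 9 there were 28.4 peaks per 100 kb in the window of *Tle2*, 27.7 at *Aes*, 23.9 at *Tle6* and 17.4 at *Tle3*, against 4.38 over the windows of all protein-coding genes. *Tle1* had 3.23 and *Tle4* had 1.05, both below that value. At day 0, however, *Tle1* had 4.04 against 1.95 over all windows, and at day 28 it had 1.62 against 2.94. Ranked by day 9 density among all protein-coding genes, *Tle2* stood at percentile 99.4, *Aes* at 99.3, *Tle6* at 98.3 and *Tle3* at 94.9, while *Tle1* stood at 48.2 and *Tle4* at 26.6. *Tle4* was below the density of all windows at each day, with 1.05, 1.05 and 1.58 peaks per 100 kb against 1.95, 4.38 and 2.94. Peaks covered 17.3%, 25.0% and 30.8% of the *Aes* window at days 0, 9 and 28, and 0.641%, 0.650% and 1.06% of that of *Tle4*.

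**Figure D1:**
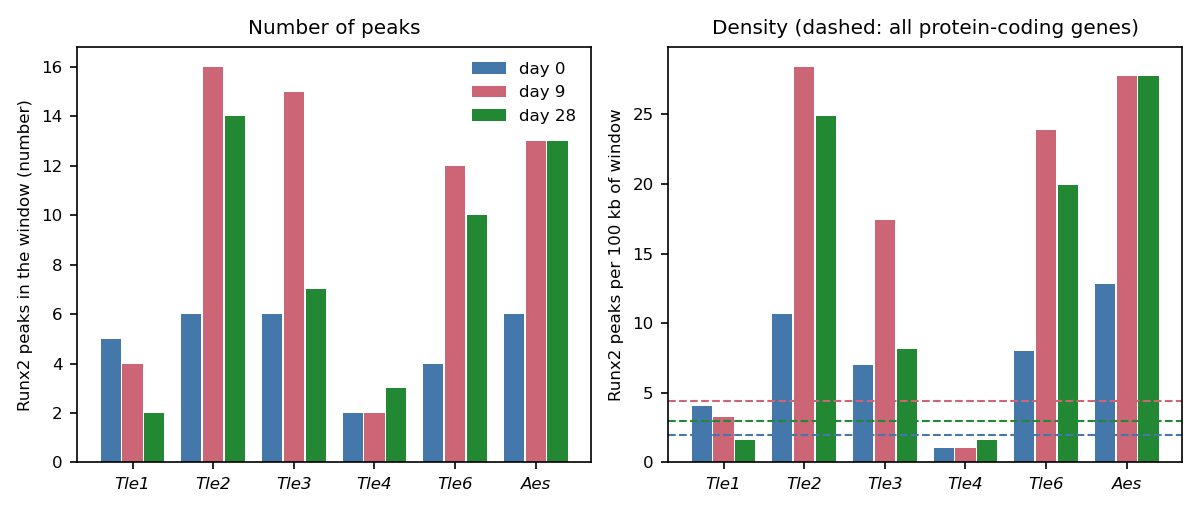
Runx2 peaks in the window of each member (gene body and 20 kb on each side) at days 0, 9 and 28, as a number (left) and per 100 kb of window (right), 1 bar per pooled list. Dashed lines give the density over the windows of all protein-coding genes, and the bars of *Tle4* stay below the line of their own day; windows of *Aes*, *Tle2* and *Tle6* overlap and share peaks.

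At the annotated starts, occupancy at day 0 was low in rank for all members but *Tle1*. A promoter was taken as 1000 bp upstream to 150 bp downstream of any protein-coding start. A peak overlapped a promoter of 5 of the 6 members at day 0, and of all 6 at day 9 and at day 28. Of all protein-coding genes, 42.7%, 51.6% and 50.1% had one at days 0, 9 and 28. At day 0 the highest promoter peak stood at percentile 96.7 at *Tle1*, 33.1 at *Tle2*, 29.9 at *Tle3*, 23.7 at *Aes* and 12.1 at *Tle4*, and *Tle6* had none. At day 9 the highest promoter peak stood at percentile 97.6 at *Tle1* and *Tle3*, 94.3 at *Tle2*, 76.4 at *Aes*, 69.9 at *Tle6* and 68.4 at *Tle4*. At day 28 these values were 98.0, 81.4, 82.6, 76.6, 68.1 and 66.6, in that order of genes. The day 9 list is longer than the day 0 list, and the part of list length in these percentiles was not tested. Higher percentiles at day 9 than at day 0 were also common elsewhere. Of all regions with peaks at all 3 days, 19.3% had a day 9 percentile at least 40 above that of day 0. Among the 15 such regions of the members, at starts or not, 4 did (26.7%). The highest percentile was at day 9 in 54.9% of all such regions and in 60.0% of those of the members. When a score of 200 was required, 1 member kept a promoter peak at day 0, *Tle1*, and all 6 kept one at day 9 and at day 28. The share of all protein-coding genes at that score was not computed, so this contrast cannot be called particular to the family.

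*Tle1* (ENSMUSG00000008305.11, chr4:71778176-71861953, minus strand) was occupied at its start at every stage. The start region, chr4:71860726-71862700, had a score of 1738 at day 0 and the ceiling score of 3100 at days 9 and 28. Of the 7 annotated protein-coding start sites of the gene, 5 lay under a peak at each day. The peaks also covered the start of *C630043F03Rik*, a lincRNA gene on the opposite strand. No TGTGGT was found anywhere in this region, whose lead peak had a GC content of 69.2% within 100 bp of the centre.

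The other *Tle1* regions ranked below the start region at each day. In intron 2, chr4:71859823-71860489 stood at percentiles 27.3, 56.2 and 11.1 at days 0, 9 and 28. In intron 4, a region 5611 bp from the start stood at percentile 31.8 at day 0 and 45.4 at day 9, with no peak at day 28, and its core motif lay 1 bp from the centre of the day 9 peak. Also in intron 4, a region 16213 bp from the start had a peak at day 0 alone, at percentile 46.7. A day 0 peak at percentile 2.03 lay downstream of the gene, and a day 9 peak at percentile 12.7 lay over coding exon 13. *Tle1* was the member whose peak number was lower at day 9 than at day 0, with 5, 4 and 2 peaks at days 0, 9 and 28. This order of days 0 and 9 was lost in other settings, with 4 peaks at both days in the gene body alone, and 2 at day 0 against 3 at day 9 where a score of 200 was required.

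*Tle3* (ENSMUSG00000032280.9, chr9:61220190-61266297, plus strand) carried a series of regions upstream of its start and in intron 4. Its 13 regions comprised 5 with peaks at all 3 days, 2 at days 9 and 28, 1 at days 0 and 9 and 5 at day 9 alone. The highest day 9 peak, chr9:61218850-61219542, had a score of 3166 and lay 1469 bp upstream of the start of the longest transcript. The same region stood at percentile 26.8 at day 0, 97.6 at day 9 and 81.4 at day 28. It lies over *Gm10655*, a predicted gene with a single exon on the opposite strand. With scores above 3100 ranked by number above those at 3100, a choice made after seeing the data, this day 9 peak stood at percentile 99.8. That rank is not an order of strength, because a score written as 3100 stands for a p-value too small to be held.

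A neighbouring upstream region of *Tle3*, 3304 bp from the start, had its highest rank at day 0. It stood at percentile 90.2 at day 0, 86.3 at day 9 and 77.4 at day 28, and at day 0 it ranked above the other *Tle3* regions. The region over the start cluster, chr9:61219789-61221735, stood at 29.9, 71.7 and 70.6. Of the 14 protein-coding start sites of *Tle3*, 1 lay under a peak at day 0, 13 at day 9 and 11 at day 28. Many of these sites lie close together, and the day 9 peak chr9:61220785-61221735 alone covered most of them.

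Within *Tle3*, intron 4 held 5 regions. The region 3982 bp from the start, with 2 core motifs, was absent from the day 0 list and stood at percentile 84.8 at day 9 and 72.7 at day 28. The region 4959 bp from the start was likewise at days 9 and 28, at percentiles 77.3 and 33.1. The region 5914 bp from the start had peaks at all days, at 72.8, 77.1 and 60.8. The remaining pair of intron 4 regions was at day 9 alone and low in its list, at percentiles 5.19 and 8.28. Farther into the gene, a region in intron 11 stood at 56.9, 75.1 and 59.7 at days 0, 9 and 28.

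*Tle4* (ENSMUSG00000024642.9, chr19:14522562-14672473, minus strand) is the longest gene of the family, at 149.9 kb, and had the fewest regions. The promoter region, chr19:14672416-14673363, stood at percentile 12.1 at day 0, 68.4 at day 9 and 66.6 at day 28. The peak reached the annotated start base at day 28 alone. Exon 1 had a further peak at day 28, at percentile 34.5. A region in intron 4, 18956 bp from the start, stood at 27.7, 37.1 and 29.2, and no peak was called in the rest of the gene or in the 20 kb beyond its end.

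**Figure D2:**
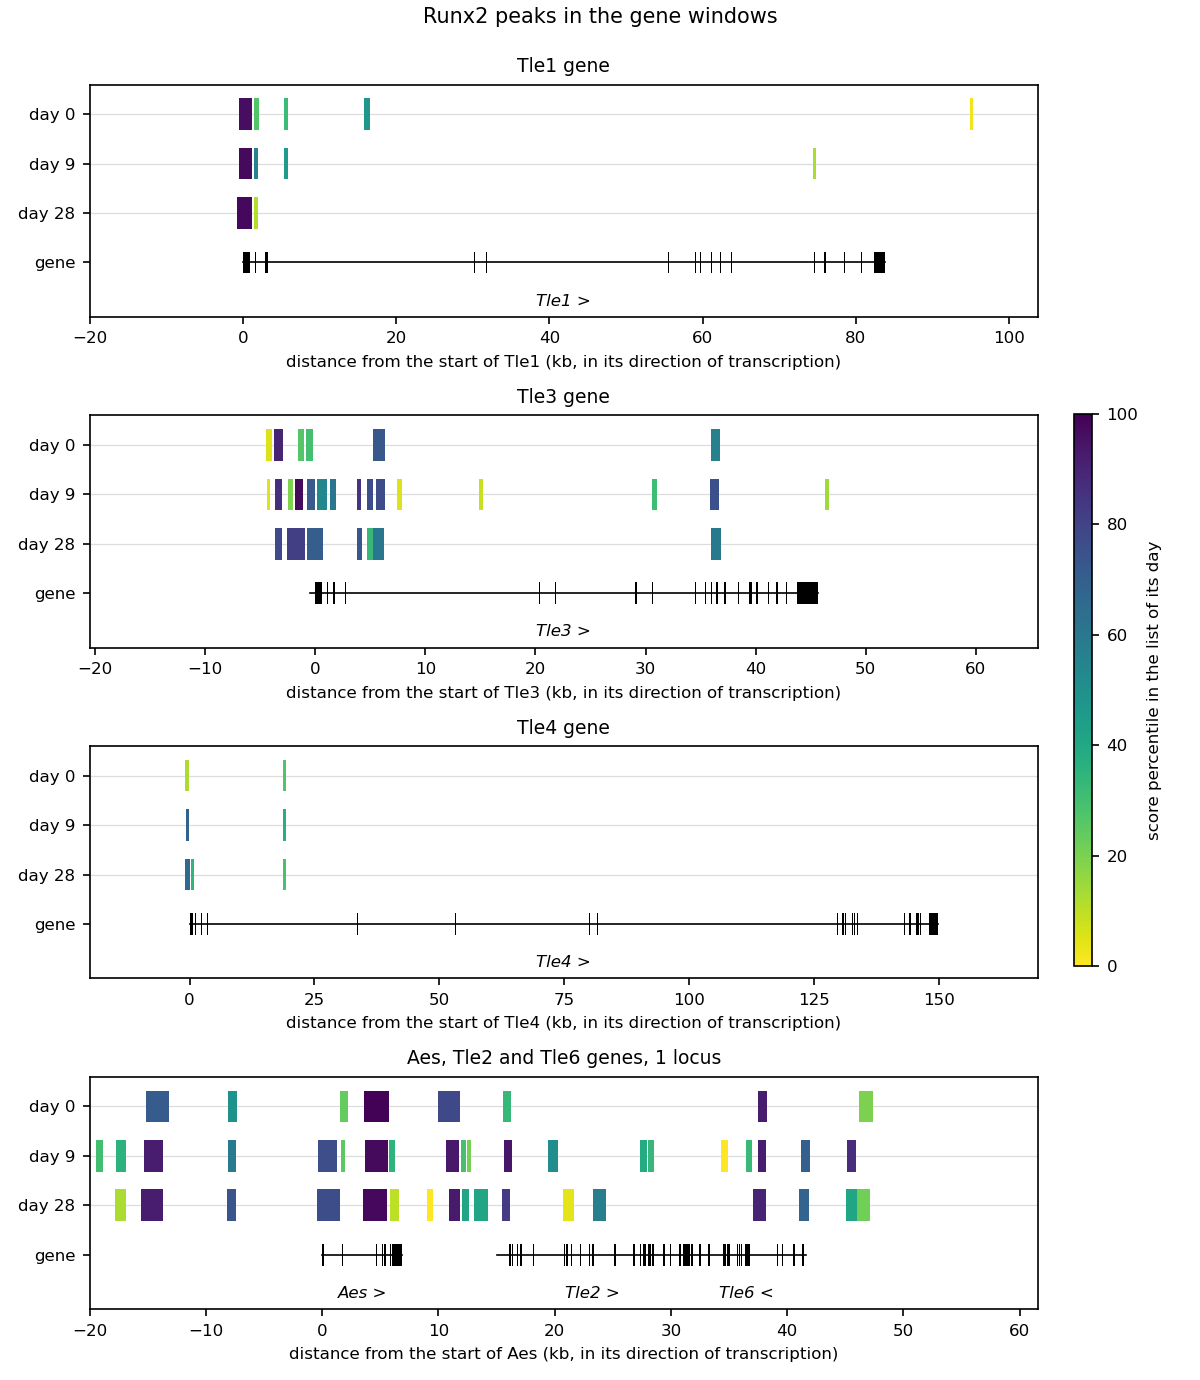
Runx2 peaks (bars, width to scale with a minimum drawn width) at days 0, 9 and 28 around each member, against distance in kb from the start of the first gene named, in its direction of transcription. Colour gives the score percentile within the list of that day, black boxes are exons of the longest protein-coding transcript, and peaks crowd the locus of *Aes*, *Tle2* and *Tle6* and the 5′ end of *Tle3*, while 3 regions lie at *Tle4*.

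*Aes* (ENSMUSG00000054452.8, chr10:81022239-81029107, plus strand) held a region at the ceiling of every list. This region, chr10:81025747-81027952, has its day 9 centre in coding exon 3, and its peak had a score of 3100 at days 0, 9 and 28. At day 0 a score of 3100 or more was reached by 0.829% of the peaks, at day 9 by 4.80% and at day 28 by 4.04%. The region held 2 core motifs, 410 and 293 bp from the day 9 centre.

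The 2 annotated starts of *Aes* differed in the days at which they were under a peak. The upstream start, at chr10:81022239, lay under a peak at days 9 and 28, at percentiles 76.4 and 76.6, and had no peak over its promoter at day 0. The downstream start, at chr10:81023923, lay under a peak at days 0 and 9, at percentiles 23.7 and 25.1. Its promoter window reaches back to the peaks of the upstream region. A region at the 3′ end of *Aes* over coding exon 7 was at percentile 35.3 at day 9 and 9.93 at day 28.

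Upstream of *Aes*, 4 regions lay in the 20 kb flank toward *Gna11*, which encodes a G protein alpha subunit and is transcribed away from *Aes*. Of these, 3 lay in the gene body of *Gna11* or over its start. The start of *Gna11* stood at percentiles 71.2, 91.8 and 92.3 at days 0, 9 and 28. A region 7785 bp upstream of *Aes* and 6519 bp upstream of *Gna11* stood at 48.9, 59.3 and 74.1, so its rank was highest at day 28. Peaks in these windows are tied to a member by distance alone.

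*Tle2* (ENSMUSG00000034771.9, chr10:81037306-81053590, plus strand) had its highest-ranked regions at and upstream of its start. The start region, chr10:81037709-81038556, stood at percentile 33.1 at day 0, 94.3 at day 9 and 82.6 at day 28. A region 4822 bp upstream stood at 78.5, 93.6 and 93.0. Neither held TGTGGT. Of the 8 protein-coding start sites of *Tle2*, 4 lay under a peak at day 0, 6 at day 9 and 4 at day 28. Inside the gene, *Tle2* had regions in introns 5, 7 and 11 and over coding exons 15 and 16, each at a single time point. Those at day 9 alone stood at percentiles 51.5, 38.9 and 33.1, and those at day 28 alone at 4.07 and 57.3. Between *Aes* and the *Tle2* start, 2 further regions were at day 28 alone, at percentiles 0.0285 and 41.1.

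*Tle6* (ENSMUSG00000034758.5, chr10:81053649-81063818, minus strand) had an internal region at all stages and a start region at the later stages. In intron 4, chr10:81059266-81060487 stood at percentile 92.0 at day 0, 91.8 at day 9 and 90.1 at day 28, and held a core motif 42 bp from the day 9 centre. Several annotated *Tle6* transcripts without a coding sequence start under this region. The 3 protein-coding starts of the gene lay under a peak at days 9 and 28, at percentiles 69.9 and 68.1, and not at day 0. A region 4138 bp upstream, with the printed run of 6 core motifs, had no day 0 peak and stood at percentile 87.5 at day 9 and 40.7 at day 28. It lies 1265 bp upstream of *BC025920*, the next gene. Of all day 9 peaks, 3.89% held 6 or more TGTGGT.

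**Figure D3:**
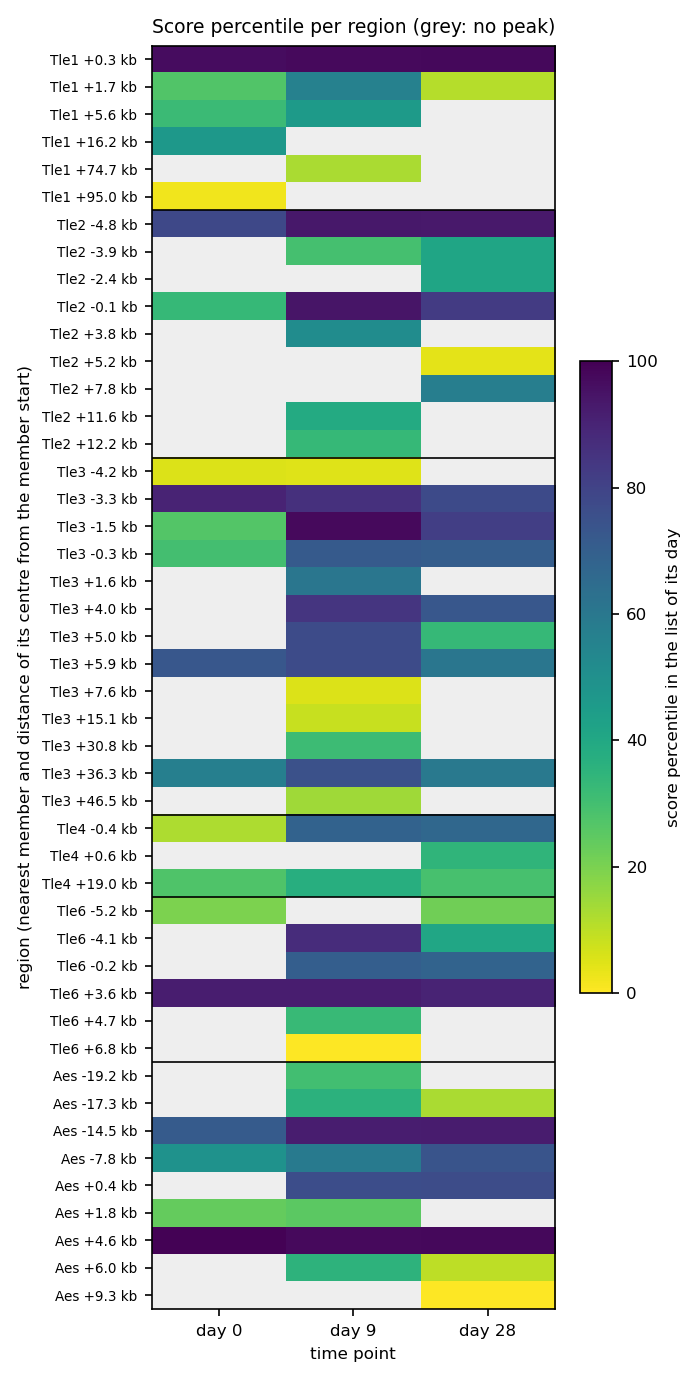
Score percentile at days 0, 9 and 28 of the 46 regions, named by the nearest member and the distance of the region's lead peak centre from the start of its longest transcript. Each day is ranked in its own list, and the lists differ in length. Darker cells are higher percentiles and grey cells had no peak in that list; the region of *Aes* at +4.6 kb, the start of *Tle1* and intron 4 of *Tle6* (+3.6 kb) are dark at every day, whereas the starts of *Tle2*, *Tle4* and *Aes* are pale or grey at day 0 and darker at day 9.

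From proliferation to matrix deposition, the deposited lists held more peaks in the windows of the family. The 6 windows together held 1.95 times as many peaks at day 9 as at day 0, against 2.38 times for the whole lists. At day 28 they held 0.707 times as many as at day 9, against 0.666 times for the whole lists. More peaks at day 9 than at day 0 were found at 4 of 6 members and at 60.3% of all protein-coding genes. Fewer at day 28 than at day 9 were found at 4 of 6 members and at 50.2% of all genes. With each list cut to the 25457 peaks of highest score, the windows held 21, 19 and 20 peaks at days 0, 9 and 28, so the day 9 excess was not seen among lists of equal length.

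Regions bound at all 3 stages numbered 15, or 32.6% of the 46, against 27.4% of all regions. Each member had at least 1 such region, as had 61.2% of all protein-coding genes. Day 9 alone accounted for 12 regions (26.1% against 34.5% of all), days 9 and 28 for 8 (17.4% against 21.1%) and day 28 alone for 5 (10.9% against 7.59%). Of the others, 3 were at days 0 and 9 (6.52% against 1.69%), 2 at day 0 alone (4.35% against 5.60%) and 1 at days 0 and 28 (2.17% against 2.06%). Both regions at day 0 alone were in the *Tle1* window, and 4 of the 5 at day 28 alone were at the locus of *Aes* and *Tle2*. Many of these regions lie next to each other, and the shares are a description.

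The 15 regions of all stages had the higher ranks. Their median percentiles at days 0, 9 and 28 were 56.9, 86.3 and 77.4, against 59.8, 79.5 and 73.2 for all regions of that kind. The 8 regions at days 9 and 28 had a median percentile of 73.2 at day 9 and 40.9 at day 28, against 58.6 and 38.5 for all. The 12 regions at day 9 alone had a median percentile of 30.9, ranging from 0.0883 to 60.7, against 26.6 for all regions at day 9 alone.

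Each region was placed, by its centre, in an exon of any protein-coding transcript, or else in an intron, a promoter, the stretch from 150 bp before to 1000 bp after a transcript end, the 20 kb upstream of a start, or intergenic sequence. Exons held the centres of 16 regions, or 34.8%, against 14.1% of all regions. Introns held 18 (39.1% against 42.6%), the upstream 20 kb 8 (17.4% against 10.6%), promoters 2 (4.35% against 3.87%), and transcript ends 1 (2.17% against 1.03%). Intergenic sequence held 1 region, or 2.17%, against 27.8% of all, a share that the choice of windows around genes makes small. The other categories together hold a larger share for the same reason. The exon and upstream shares are therefore not like for like with those of all regions.

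Both strands of the 50 bp to either side of each peak centre were searched for the core motif TGTGGT. It was found in 5 of 21 member peaks at day 0 (23.8%, exact binomial 95% interval 8.22% to 47.2%), in 4 of 41 at day 9 (9.76%, 2.72% to 23.1%) and in 2 of 29 at day 28 (6.90%, 0.846% to 22.8%). The shares over all peaks were 16.0%, 25.3% and 20.9%. In a stretch of equal length 450 to 550 bp before the centre, the shares over all peaks were 6.55%, 7.45% and 6.97%. The intervals of the member peaks at days 9 and 28 include these flank values. The intervals treat peaks as independent and cover counting error only. The day 9 peaks with the motif were all intronic, at *Tle1*, *Tle3* and *Tle6*. None of the 16 day 9 member peaks centred in exons had it, which allows a share of up to 18.8% when a count of 0 is read as at most 3 counts. Over all day 9 peaks the share in exons was 9.85%. Of the 15 intronic member peaks at day 9, 4 had the motif (26.7%), near the 27.9% of all intronic peaks. None of the 7 member peaks in the upstream 20 kb had it, against 28.8% of all such peaks, and by the same reading a count of 0 allows up to 42.9% here. Over the whole peak, 15 of 41 member peaks at day 9 held TGTGGT, or 36.6%, against 58.7% of all day 9 peaks. Median GC content within 100 bp of the centre was 60.2% for the day 9 member peaks and 54.7% for all day 9 peaks. The part of base composition in the motif shares was not tested.

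**Figure D4:**
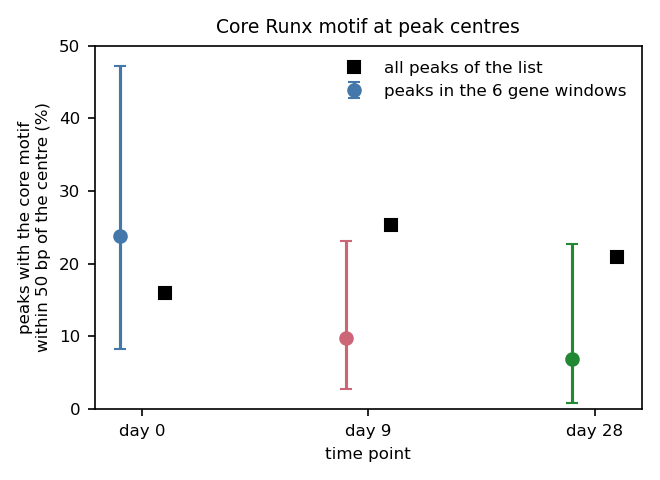
Share of peaks with TGTGGT on either strand within 50 bp of the centre at days 0, 9 and 28, for the peaks in the 6 gene windows (circles, with exact binomial 95% intervals) and for all peaks of the list (squares). The circle lies above the square at day 0 and below it at days 9 and 28, and at day 9 the square at 25.3% lies just above the interval.

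Groucho partners and other corepressor genes were counted in the same way. The list held 25 genes for DNA-binding partners (among them genes of the Hes, Hey, Tcf/Lef and Runx families, *Cbfb*, *Msx2*, *Six3* and *Pax5*) and for corepressors and deacetylases. At days 0, 9 and 28 a peak lay in the window of 21, 22 and 23 of the 25, and over a promoter of 16, 19 and 20. Of all protein-coding genes, 65.0%, 77.0% and 71.2% had a peak in the window and 42.7%, 51.6% and 50.1% had one over a promoter. More peaks at day 9 than at day 0 were found at 20 of the 25 (60.3% of all genes), fewer at day 28 than at day 9 at 19 (50.2% of all genes) and a region bound at all 3 days at 19 (61.2% of all genes). The median number of peaks was 2, 7 and 5 at days 0, 9 and 28. The best day 9 peak was in the tie at the top of the list for 12 of the 25 genes, for 4 of the 6 family members and for 16.7% of all protein-coding genes, so no order among them can be given. These 12 included *Hes1*, the Wnt effectors *Lef1*, *Tcf7*, *Tcf7l1* and *Tcf7l2*, the Runx genes *Runx1* and *Runx3* with *Cbfb*, which encodes their binding partner, and the corepressor genes *Hdac2*, *Hdac4* and *Ctbp1*. In the family, 3 distinct regions gave these ranks, since *Aes* and *Tle2* share one.

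*Hdac3*, a deacetylase of corepressor complexes, had 3, 5 and 3 peaks at days 0, 9 and 28, with a best percentile of 93.9 at day 9. *Runx2* itself had 11, 17 and 13. *Hey2* had no peak at any day.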

How the data were processed

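Peak lists of Runx2 ChIP-Seq at days 0, 9 and 28 were used, 1 list per time point, each pooled by the authors from 2 biological replicate libraries. Per the labels and the study's methods, the authors took base calls with CASAVA (version 1.6), mapped reads to mm9 with Bowtie (version 0.12.8) and kept MACS (version 1.4.1) peaks over input DNA with a p-value of at most 1e-10. The score the authors deposited is the negative log10 of that p-value, multiplied by 10. It was ranked only within a list. Input libraries and read signal were not analysed here.

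All peaks lay within NCBIM37, and genes came from GENCODE M1, annotated on that assembly. Starts in the files were converted to count from 1. Gene bodies span all transcripts; exon numbers and distances refer to the longest protein-coding transcript, and the centre is the midpoint of the day 9 peak, or else of the highest-ranked peak. Locations followed the definitions of the study's 6 categories, but with peak midpoints on GENCODE M1 protein-coding transcripts, where the study placed peak summits on RefSeq genes, so shares per category are not those of the study. Named genes were the members, genes whose start lies in or nearest to their windows, and the partner list, whose 3 highest could not be told from the 12 genes tied at the top. Values of some genes of that list are not reported here. Members and lists were chosen with earlier results of these data known. No test was made, since no time point has replicates in the files. The merging of peaks and the motif search were tested on simulated data, and the other steps were not. Scripts ran in Python 3.11.15 with SciPy 1.17.1 and NumPy 2.4.6, and plots were drawn in Matplotlib 3.10.9.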

Additional observations from a re-analysis of the deposited data

How the results depend on the processing

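Counts moved by more than 1.5 times mainly with the score threshold. With a score of 200 required (a p-value of 1e-20), the 6 windows held 10 peaks at day 0 and 23 at day 9. They then held 27 regions, 9 of them at all 3 days and 4 at day 9 alone. At that score 1 member had a promoter peak at day 0, given here without the share of all genes. With a score of 500 (1e-50) they held 5, 17 and 14 peaks at days 0, 9 and 28, in 18 regions, 5 at all 3 days and 4 at day 9 alone. In the gene bodies alone there were 12, 27 and 18 peaks. With the same number of top-scoring peaks per list, there were 19 peaks at day 9 and 30 regions, 4 at days 9 and 28 and 2 at day 9 alone. Searched over the whole peak, TGTGGT was in 52.4%, 36.6% and 51.7% of member peaks at days 0, 9 and 28. The shares over all peaks were 61.4%, 58.7% and 61.6%. Within 100 bp of the centre TGTGGT was in 28.6%, 22.0% and 17.2% of member peaks, given here without the share over all peaks. The day 9 count was the highest of the 3 days, and the day 0 count the lowest, in 6 of 7 settings, the exception being lists of equal length. Of the values recomputed per member, 75 stayed within 1.5 times of those given and 52 did not. No paired analysis was possible because each time point has 1 pooled list, and for the same reason no replicate could be left out. Read counts per peak are not in the lists, so a region without a peak may fall below the threshold rather than be unbound.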
